A study of Arabidopsis thaliana with 10 samples.

Results

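The line DIF-OX2 of Arabidopsis thaliana was compared with the wild type Col-0 in seedlings that had not received the inducer dexamethasone (Dex). The members are the 4 libraries of this comparison, 2 of DIF-OX2 and 2 of Col-0, out of 10 libraries in the series, and they were taken by genotype and treatment in the sample labels. The comparison asks what the uninduced line already changes, since every effect of induction is measured on top of it. It was described across all 33602 genes of the count table, of which 20681 had enough counts to be tested.

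DIF-OX2 is a line in the Col-0 background in which Dex, a synthetic glucocorticoid, serves as the inducer of DIF. All 4 libraries came from whole seedlings 12 days old with 4 open true leaves, grown on medium with sucrose in long days and given 0.1% ethanol, the solvent of Dex. The companion groups of 2 libraries each are DIF-OX2 on 10 µM Dex, Col-0 on 10 µM Dex, both 12 days old and with the same ethanol, and the mutant dal-2 without Dex, whose plants were 20 and 21 days old at the same leaf number. DIF-OX2 is 1 line, and the promoter, the induction system and the insertion site of its transgene are not given in the sources used here. An effect of the line cannot be told apart from an effect of leaky DIF.

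SCF complexes are ubiquitin ligases in which an F-box protein picks the substrate, while a cullin, a SKP1-like protein and a RING protein form the shared core. The title of the study names a complex of this kind, with DIF as its substrate receptor, that removes the protein DAL. DAL, also called MORF2, belongs to a small plant family that takes part in the editing of plastid and mitochondrial transcripts. When plastids fail, retrograde signals lower the nuclear genes of photosynthesis, so these genes are a common readout of plastid state.

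Without Dex, 2 of 20681 tested genes (0.00967%) differed between DIF-OX2 and Col-0, both lower in DIF-OX2 and 0 higher (edgeR quasi-likelihood test, Benjamini-Hochberg adjusted p under 0.05). They were CYP78A5 and CYP82C4, a pair of cytochrome P450 enzymes. With 2 calls in all, 0 called in a gene list is near the share over all tested genes. At an unadjusted p under 0.05 there were 262 genes (1.27%). The DESeq2 Wald test called 6 genes, all lower, and the limma-voom fit called the same 2 genes as edgeR. In the same fit, 4549 genes (22.0%) differed between DIF-OX2 and Col-0 with both on Dex, 2408 higher (11.6%) and 2141 lower (10.4%). The comparisons without and on Dex share no library.

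Fold changes of the uninduced line were small across the transcriptome. The median absolute log2 fold change was 0.106 without Dex and 0.363 on Dex, and 9 in 10 genes stayed within 0.408 without Dex. A 95% interval lying wholly within a 2-fold change in either direction was reached by 15413 genes (74.5%), and by 16810 of 20338 (82.7%) in a fit without dal-2, whose replicates lay furthest apart. Precision depended on the level, given here as CPM, the count of a gene relative to the scaled total of its library. The median half-width of the interval was 1.54 on the log2 scale for the 1456 genes under 1 CPM, 0.702 from 1 to 10 CPM, 0.389 from 10 to 100 CPM and 0.419 at 100 CPM or more. Changes smaller than 2-fold in genes under 1 CPM were therefore not detectable at this depth. Larger changes in genes above 1 CPM could also stay uncalled after adjustment over all tested genes. IRT1 was 3.21-fold and MAF5 3.13-fold lower in DIF-OX2 without a call in edgeR.

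**Figure D1:**
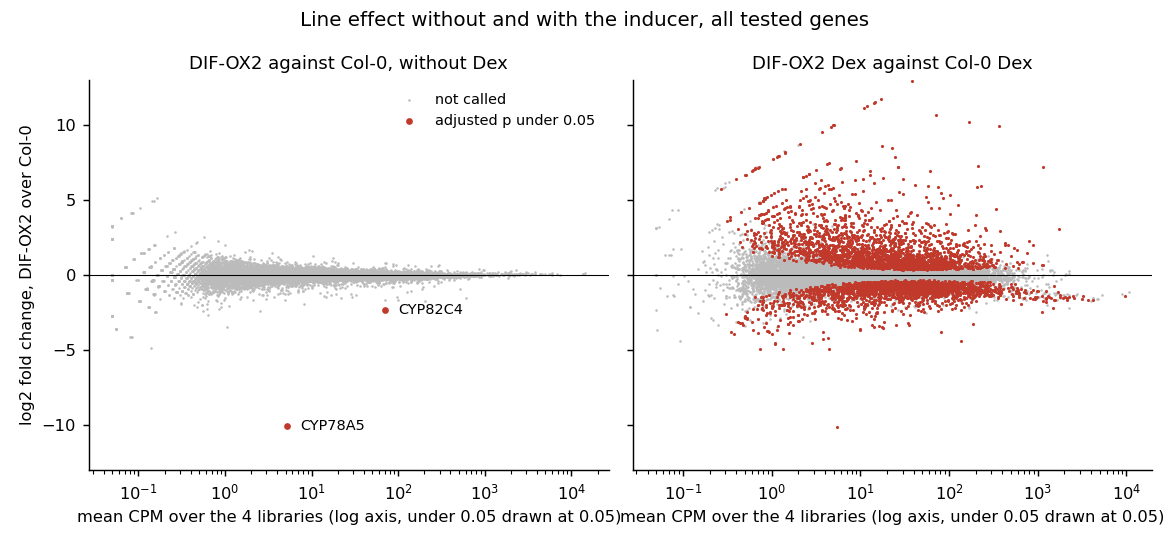
Log2 fold change of DIF-OX2 over Col-0 (vertical axis) against the mean CPM of the 4 libraries compared (horizontal log axis) for 20681 genes, without Dex on the left and on Dex on the right. Red points passed an adjusted p of 0.05: the 2 named genes on the left and 4549 genes on the right.

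Over all tested genes 366 (1.77%) differed by more than 2-fold without Dex, in either direction. Of the 15681 genes with a mean of at least 50 counts over the 4 libraries, 29 differed by more than 2-fold without Dex, 27 of them lower in DIF-OX2 and 2 higher. On Dex the number was 1880. CYP78A5 and MAF5 had a mean of 48.0 counts each and are therefore not among these genes. Many of the 27 lower genes were plastid genes. In 61 of 63 tested plastid genes Col-0 replicate 2 was the highest of the 4 libraries without Dex. The 2 genes above 2-fold were AT5G64190 and AT4G22520, named after their values were seen. AT5G64190, annotated as a neuronal PAS domain protein, stood at 14.7 and 14.1 CPM in DIF-OX2 and at 6.13 and 6.04 CPM in Col-0. AT4G22520, of a lipid transfer protein family, stood at 20.5 and 27.6 CPM in DIF-OX2 and at 12.0 and 10.0 CPM in Col-0. In each of these genes both DIF-OX2 libraries lay above both Col-0 libraries, but neither passed the test (adjusted p = 1.0 each, edgeR quasi-likelihood, Benjamini-Hochberg).

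Depth was 14029728 and 12745229 counts in DIF-OX2 and 9780846 and 10463971 in Col-0. Whether the duplicates were grown separately is not stated, so the spread between them may be technical. The p-values reflect this spread over all 10 libraries of the fit, dal-2 included. With only the 4 libraries of the comparison in the fit, 0 genes were called. The closest libraries were those of equal replicate number in DIF-OX2 and Col-0. Over 16525 genes the SD of the log2 difference was 0.211 between replicate 1 of DIF-OX2 and replicate 1 of Col-0, and 0.221 between both replicates 2. It was 0.345 between DIF-OX2 replicate 1 and Col-0 replicate 2 and 0.344 between DIF-OX2 replicate 2 and Col-0 replicate 1. Within a genotype it was 0.30 between the DIF-OX2 replicates and 0.346 between the Col-0 replicates. More than 2-fold differences numbered 31 and 47 genes between the libraries of equal number, 333 and 260 between those of unequal number, 188 between the DIF-OX2 replicates and 291 between the Col-0 replicates.

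**Figure D2:**
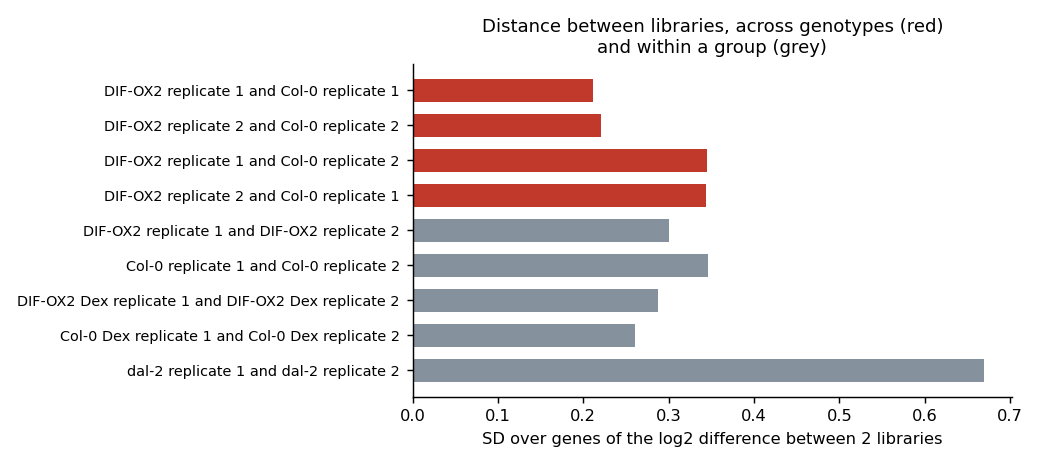
SD over 16525 genes of the log2 difference (horizontal axis) for 9 pairs of libraries, DIF-OX2 with Col-0 in red and replicates of 1 group in grey. The shortest bars are the pairs of equal replicate number, 0.211 and 0.221, and the longest is the dal-2 pair, 0.669.

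CYP78A5 (AT1G13710), also known as KLUH, is a cytochrome P450 that promotes the growth of leaves and flower organs and is active at the margins of the shoot meristem. It had 0 and 0 counts in DIF-OX2 and 90 and 102 counts in Col-0, that is 0 CPM in both DIF-OX2 libraries and 10.0 and 11 CPM in Col-0. The transcript was thus without a single read in the line and present at a steady low level in wild type. With 3 counts over both DIF-OX2 libraries as the limit that a count of 0 allows, the level was at least 84.4-fold lower in DIF-OX2 (adjusted p = 0.00393, edgeR quasi-likelihood, Benjamini-Hochberg). This limit covers counting error only.

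The same held on Dex. CYP78A5 had 0 and 0 counts in DIF-OX2 on Dex and 118 and 159 counts in Col-0 on Dex. That is at least 94.3-fold lower in the line, and the dal-2 libraries held 403 and 505 counts. Over both line groups against both Col-0 groups the level was at least 179-fold lower. CYP78A5 was the only gene called in both line comparisons. It was also the only gene with at most 3 counts over both DIF-OX2 libraries and at least 1 CPM in each Col-0 library, and 0 genes showed the opposite pattern. The call ended without Col-0 replicate 2 (adjusted p = 0.0531), when the lone Col-0 library was assumed to vary like the other groups, and with only the 4 libraries in the fit (adjusted p = 0.227).

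None of the genes next to CYP78A5 in the reference annotation was called. PGL1, a 6-phosphogluconolactonase of the pentose phosphate pathway, had 179 and 261 counts in DIF-OX2 and 121 and 272 in Col-0, a log2 fold change of -0.21 (95% interval -1.33 to 0.90). On the other side AT1G13730, an RNA-binding NTF2 family protein, had 614 and 494 counts in DIF-OX2 and 439 and 358 in Col-0, a log2 fold change of 0.07. The tRNA gene AT1G13720 between them was at 0 in every library. Beyond these, ATE1 and AFP2 changed by -0.02 and 0.04 on the log2 scale, without a call. Further out, AT1G13670 had a log2 fold change of 0.38 (95% interval -1.12 to 1.88) and AT1G13750 of -0.08. For AT1G13670 the groups did not overlap, as in 27.5% of all tested genes.

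The related CYP78A genes, described here after their values were seen, had log2 fold changes above 0 in all 4 members that could be tested, and 0 were called. CYP78A6 stood at 5.78 and 4.199 CPM in DIF-OX2 and 2.90 and 3.02 CPM in Col-0. CYP78A8 stood at 5.78 and 4.02 CPM in DIF-OX2 and 3.34 and 2.80 CPM in Col-0. Both genes were higher in each DIF-OX2 library than in each Col-0 library, by 0.75 and 0.68 on the log2 scale. Groups did not overlap in 27.5% of all tested genes. CYP78A9 (log2 fold change 0.61) and CYP78A7 (1.02) had overlapping groups, and CYP78A10 had too few counts to be tested. On Dex, CYP78A8 was called higher in the line, with a log2 fold change of 1.34 (adjusted p = 0.0112, edgeR quasi-likelihood, Benjamini-Hochberg). CYP78A6 lay on the other side of 0 on Dex, at 1.72 and 2.06 CPM in DIF-OX2 on Dex and 3.23 and 4.02 CPM in Col-0 on Dex, and was not called (log2 fold change -0.92).

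Of 19 tested genes of cell division and organ growth, CYP78A5 alone was called, against 0.00967% of all tested genes. This call is the one already described and not a further result. The median log2 fold change of the list was -0.08, against -0.00366 over all tested genes. The mitotic cyclin CYCB1;1 stood at 6.57 and 8.397 CPM in DIF-OX2 and 9.02 and 7.33 CPM in Col-0. The groups overlapped and the log2 fold change was -0.13 (95% interval -1.21 to 0.95). In bulk seedlings, fewer cells of a type and less RNA per cell cannot be told apart.

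CYP82C4 (AT4G31940) is a hydroxylase of the coumarin pathway whose product helps roots to mobilise iron, and its transcript is a marker of iron deficiency. It stood at 20.9 and 26.7 CPM in DIF-OX2 and at 128 and 109 CPM in Col-0. Both DIF-OX2 libraries lay far below both Col-0 libraries, at 23.8 ± 4.09 CPM against 118 ± 13.6 CPM (SD, n = 2 each), a 4.98-fold lower level. The log2 fold change was -2.32 (SE 0.191, adjusted p = 0.0212, edgeR quasi-likelihood, Benjamini-Hochberg).

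**Figure D3:**
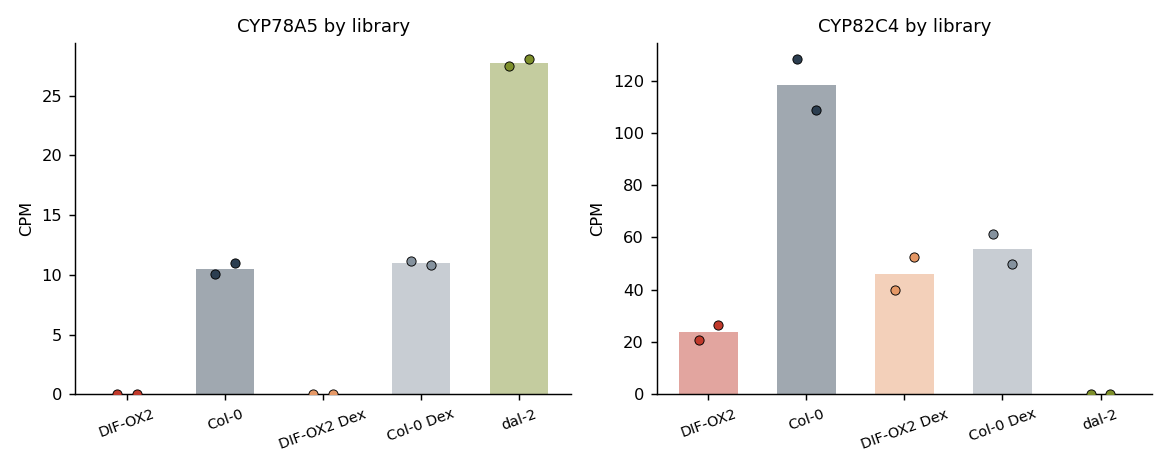
CPM of CYP78A5 (left) and CYP82C4 (right) in each library (points) with group means (bars) for the 5 groups. CYP78A5 is at 0 in all 4 DIF-OX2 libraries, while CYP82C4 is highest in Col-0 without Dex, at 128 and 109 CPM.

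On Dex CYP82C4 was not called. The induced line had 39.7 and 52.5 CPM, against 61.3 and 49.8 CPM in Col-0 on Dex, with overlapping groups and a log2 fold change of -0.26 (95% interval -0.70 to 0.17). The line effect on Dex minus that without Dex was 2.05 on the log2 scale (adjusted p = 0.00774, edgeR quasi-likelihood, Benjamini-Hochberg). Both Col-0 libraries without Dex lay above both Col-0 libraries on Dex. The call without Dex ended when any 1 of the 4 libraries was left out (adjusted p from 0.112 to 0.510). It ended too with only the 4 libraries in the fit (adjusted p = 0.227) and in a test against a minimum change of 2-fold (0.205).

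Of the 14 tested genes for iron uptake and storage 0 were called. Their median log2 fold change was -0.86, with a range of -1.68 to 0.36. The groups did not overlap in 4 of the 14, against 27.5% of all tested genes. All 12 members other than ferritins lay below 0, against 51.0% of all tested genes. All 12 were also highest of the 4 libraries in Col-0 replicate 1. Their group means were higher in Col-0 without Dex than in Col-0 on Dex, though the libraries overlapped for some, bHLH38 among them. Without Col-0 replicate 1 the median of the list was 0.14, and without Col-0 replicate 2 it was -1.55. Without DIF-OX2 replicate 1 or 2 it was -1.34 or -0.46.

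IRT1, the main iron transporter of the root epidermis, stood at 43.0 and 51.6 CPM in DIF-OX2 and 184 and 120 CPM in Col-0. FRO2, the ferric reductase that works beside it, stood at 32.0 and 35.6 CPM in DIF-OX2 and 126 and 89.9 CPM in Col-0. For both genes the groups did not overlap and the log2 fold change was -1.68, with an adjusted p of 1.0 in edgeR and of 0.0280 in the DESeq2 Wald test (Benjamini-Hochberg adjustment in each). The value was -1.33 for IRT1 and -1.40 for FRO2 without Col-0 replicate 1.

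bHLH38, one of the transcription factors that switch on this response, stood at 3.25 and 2.89 CPM in DIF-OX2 and at 12.4 and 2.70 CPM in Col-0, so that replicate 2 of Col-0 lay below both DIF-OX2 libraries. Its log2 fold change was -1.29, and 0.20 without Col-0 replicate 1. BHLH100 showed the same shape, with 2.06 and 1.75 CPM in DIF-OX2 and 9.02 and 1.73 CPM in Col-0, a log2 fold change of -1.48 that became 0.15 without Col-0 replicate 1. AT3G12900, an oxygenase that needs iron, had 2 and 2 counts in DIF-OX2 and 22 and 13 counts in Col-0, without overlap and with a log2 fold change of -3.46 that was not called.

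Ferritins, which store iron in plastids, lay on the other side of 0. FER3 stood at 70.1 and 63.8 CPM in DIF-OX2 and 49.8 and 63.1 CPM in Col-0, and FER4 at 46.8 and 41.7 CPM in DIF-OX2 and 28.0 and 40.9 CPM in Col-0. Their log2 fold changes were 0.25 and 0.36, and neither was called. The zinc transporter gene MTPA2, which rises in iron-starved roots, stood at 16.3 and 13.7 CPM in DIF-OX2 and 30.1 and 25.1 CPM in Col-0 and was not called either (log2 fold change -0.88).

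**Figure D4:**
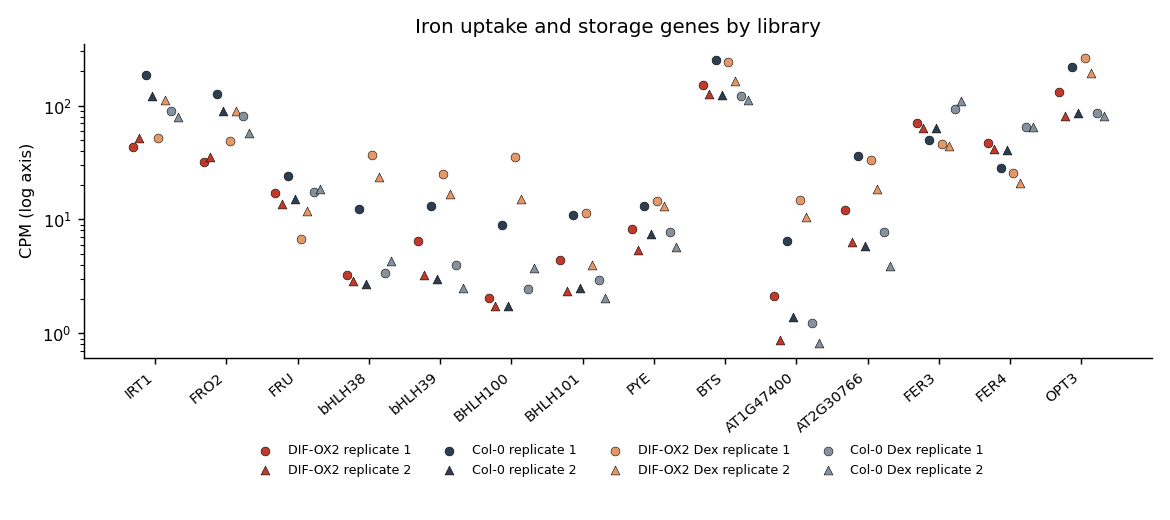
CPM (log axis) of the 14 genes for iron uptake and storage in the 8 libraries of DIF-OX2 and Col-0, without and on Dex, with circles for replicate 1 and triangles for replicate 2. Col-0 replicate 1 (dark circles) is the highest of the 4 libraries without Dex in all 12 genes left after FER3 and FER4.

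The nuclear genes of photosynthesis, the usual readout of plastid signals, lay close to wild type in the uninduced line. Of 29 tested subunits of the photosystems and the electron transport chain, 0 were called, and their log2 fold changes ran from -0.10 to 0.19 with a median of 0.06. On Dex the median of the same genes was -1.45, and 23 were called lower, against 10.4% of all tested genes. The light-harvesting antenna had a median of 0.05 over 20 genes without Dex and of -1.57 on Dex, with 0 and 11 genes called. The Calvin-Benson cycle had a median of 0.05 over 19 genes without Dex and of -1.24 on Dex, with 0 and 5 genes called.

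The intervals show how small a change these data allow. In the fit with all groups the 95% interval lay within a 2-fold change for 20 of 29 photosystem genes, 7 of 20 antenna genes and 7 of 19 Calvin-Benson genes. In the fit without dal-2 it did so for 29 of 29, 20 of 20 and 19 of 19. PSAD-1, a photosystem I subunit, stood at 1752 and 1900 CPM in DIF-OX2 and 1669 and 1830 CPM in Col-0. CAB2, a chlorophyll-binding antenna protein, stood at 7140 and 7633 CPM in DIF-OX2 and 6678 and 7844 CPM in Col-0. RBCS1A, which encodes a small subunit of Rubisco, stood at 14310 and 13650 CPM in DIF-OX2 and 13250 and 13540 CPM in Col-0. The DIF-OX2 and Col-0 libraries interleaved for PSAD-1 and CAB2, and for RBCS1A both DIF-OX2 libraries lay above both Col-0 libraries, by 0.06 on the log2 scale.

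Tetrapyrrole and chlorophyll synthesis (25 genes) and plastid transcription and greening (17 genes) gave the same result, with medians of 0.02 in both and 0 called. On Dex the first of these lists had a median of -1.02, with 17 genes called lower and 1 higher. The second had a median of -0.93, with 7 lower and 0 higher. Over all tested genes 10.4% were called lower and 11.6% higher on Dex. HEMA1, a glutamyl-tRNA reductase of tetrapyrrole synthesis, stood at 1002 and 933 CPM in DIF-OX2 and 713 and 957 CPM in Col-0, with overlap. The plastid sigma factor gene SIGA stood at 286 and 254 CPM in DIF-OX2 and 237 and 263 CPM in Col-0. In the fit with all groups the interval without Dex lay within a 2-fold change for 18 of 25 and 13 of 17 genes. In the fit without dal-2 it did so for 24 of 25 and 17 of 17.

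DAL itself (AT2G33430) stood at 92.6 and 95.6 CPM in DIF-OX2 and at 97.9 and 107 CPM in Col-0. Both DIF-OX2 libraries lay just below both Col-0 libraries, with a log2 fold change of -0.12 (95% interval -0.47 to 0.22; adjusted p = 1.0, edgeR quasi-likelihood, Benjamini-Hochberg). On Dex it was called lower in the line, at 72.6 and 59.3 CPM in DIF-OX2 on Dex and 99.6 and 115 CPM in Col-0 on Dex. The dal-2 libraries held 29.5 and 35.7 CPM. In all 9 genes of the DAL and MORF family the interval without Dex lay within a 2-fold change, and their log2 fold changes ran from -0.14 to 0.21. MORF9, which edits plastid transcripts like DAL, stood at 108 and 94.1 CPM in DIF-OX2 and 117 and 99.3 CPM in Col-0. These are transcript levels, and DAL protein was not measured here.

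Components of SCF ligases also lay close to wild type. SKP1, the adaptor that holds the F-box protein, stood at 160 and 162 CPM in DIF-OX2 and 168 and 163 CPM in Col-0. The 7 genes of this list, with the cullin CUL1 and the RING protein RBX1 among them, had log2 fold changes from -0.07 to 0.10, and all 7 intervals lay within a 2-fold change. No label names the locus of DIF, and none of these genes is identified as DIF here. Of 629 F-box genes in the reference annotation 175 could be tested. Without Dex 0 of them were called in either direction, against 0.00967% of all tested genes. On Dex 13 were higher (7.43%) and 12 lower (6.86%), against 11.6% and 10.4% of all tested genes.

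The genes called on Dex were centred near 0 without Dex. The 2408 genes called higher on Dex had a median log2 fold change of 1.21 on Dex and of -0.01 without Dex. The 2141 genes called lower on Dex had -0.985 on Dex and 0.02 without Dex. Of all 4549 genes, 46.0% had the same direction without Dex, 75 were past 2-fold in that direction, and 1, CYP78A5, was called. For 4341 of them (95.4%) the 95% interval without Dex excluded the value on Dex. The genes were picked by that value and its own error was left out, so this share cannot measure the difference. The direct test of the difference called 1309 genes over the whole table (6.33%), 792 higher (3.83%) and 517 lower (2.50%). Of the 4549 genes called on Dex it called 1306 (28.7%). Across the 20681 tested genes, fold changes without and on Dex had a Pearson's r of 0.0365 and a Spearman's rho of -0.0305, as a description over genes that are not independent replicates.

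No gene of the stress and hormone lists was called in the uninduced line, against 0.00967% of all tested genes. SARD1, a master regulator of salicylic acid synthesis, stood at 1.19 and 1.14 CPM in DIF-OX2 and 1.23 and 0.755 CPM in Col-0, against 71.9 and 92.2 CPM in DIF-OX2 on Dex and 0.569 and 1.84 CPM in Col-0 on Dex. The pathogenesis marker PR1 did not exceed 0.238 CPM in any of the 4 libraries without Dex, and reached 21.2 and 14.1 CPM in DIF-OX2 on Dex. Of 15 tested salicylate genes 0 were called without Dex, with a median of -0.09. On Dex 9 were higher, against 11.6% of all tested genes. The isochorismate synthase gene EDS16 stood at 18.7 and 21.3 CPM in DIF-OX2 and 19.7 and 21.5 CPM in Col-0.

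The mitochondrial dysfunction response, 12 genes that report on impaired respiration, had 0 called without Dex. On Dex 7 were higher, against 11.6% of all tested genes. AOX1A, the stress-induced alternative oxidase, stood at 37.8 and 32.4 CPM in DIF-OX2 and 36.7 and 33.1 CPM in Col-0, a log2 fold change of 0.01 (95% interval -0.30 to 0.32). On Dex the log2 fold change was 0.87, and the difference between both line effects was called. AOX1D, a second gene of this family, had at most 0.0875 CPM in DIF-OX2 and was at 0 in Col-0. The heat shock list (10 tested, median -0.12) and the oxidative stress list (12 tested, median 0.06) had 0 called without Dex. On Dex 4 heat shock genes were called higher and 0 lower, against 11.6% and 10.4% of all tested genes. In the oxidative stress list 5 were called higher and 1 lower on Dex, and the median was 0.06. The first members of these lists, HSP101 and FSD1, had log2 fold changes of 0.14 and 0.35 without Dex. On Dex FSD1 was the member called lower, with a log2 fold change of -1.03.

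Of the hormone lists, jasmonate (22 tested) had a median of -0.17, abscisic acid (14 tested) of -0.20, and ethylene and early stress (15 tested) of -0.16. Without Col-0 replicate 1 the jasmonate and abscisic acid medians were 0.01 and 0.04, and without DIF-OX2 replicate 1 that of ethylene was 0.01. LOX2, a jasmonate synthesis enzyme, stood at 177 and 144 CPM in DIF-OX2 and 227 and 180 CPM in Col-0. NCED3, which controls abscisic acid synthesis, stood at 6.25 and 4.199 CPM in DIF-OX2 and 8.36 and 4.21 CPM in Col-0. The ethylene factor ERF1 was at 0 in all 4 libraries. On Dex the auxin list (16 tested) had 10 called lower, against 10.4% of all tested genes. Its median was -0.98 on Dex and 0.04 without Dex. Its member IAA1, an auxin-induced repressor, stood at 43.9 and 30.8 CPM in DIF-OX2 and 32.5 and 25.1 CPM in Col-0, with overlap.

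Lists that report on growth conditions also had 0 called without Dex, against 0.00967% of all tested genes. The circadian clock (18 tested) had a median of 0.07, and CCA1, a morning gene of the clock, stood at 439 and 369 CPM in DIF-OX2 and 409 and 350 CPM in Col-0. Cold response (8 tested) had a median of -0.19, with CBF1 at 0 in all 4 libraries, and its median was 0.10 without Col-0 replicate 1 and -0.37 without Col-0 replicate 2. Phosphate starvation (12 tested) had a median of -0.13, which was 0.24 without Col-0 replicate 1, and its transporter PHT1;1 a log2 fold change of -0.21. Nitrate and sulphate (15 tested) had a median of -0.03, and the nitrate reductase gene NIA1 a log2 fold change of -0.06. Aliphatic glucosinolate synthesis (17 tested) had a median of -0.08, and MAM1, which lengthens the side chain, a log2 fold change of -0.16. The median of this list was 0.25 without Col-0 replicate 1 and -0.34 without Col-0 replicate 2. Of the 29 gene lists plotted by fold change, 22 had a median that changed sign when 1 of the 4 libraries was left out, the iron and flavonoid lists among them. The medians of the 5 lists for photosynthesis, chlorophyll synthesis and greening lay between -0.049 and 0.158 in those fits.

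Among dark and starvation genes, DIN10, ASN1 and SEN1, named after their values were seen, differed more between replicates than between genotypes. DIN10, a gene induced by darkness and low sugar, stood at 172 and 878 CPM in DIF-OX2 and at 122 and 744 CPM in Col-0. Replicate 2 was 5.12-fold above replicate 1 in DIF-OX2 and 6.07-fold in Col-0. ASN1, an asparagine synthetase of starved tissue, had ratios of 5.54 in DIF-OX2 and 6.37 in Col-0, and SEN1, a senescence gene, of 4.23 and 4.82. The list (13 tested, first member DIN2 with a log2 fold change of -0.79) had 0 called and a median of 0.06.

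**Figure D5:**
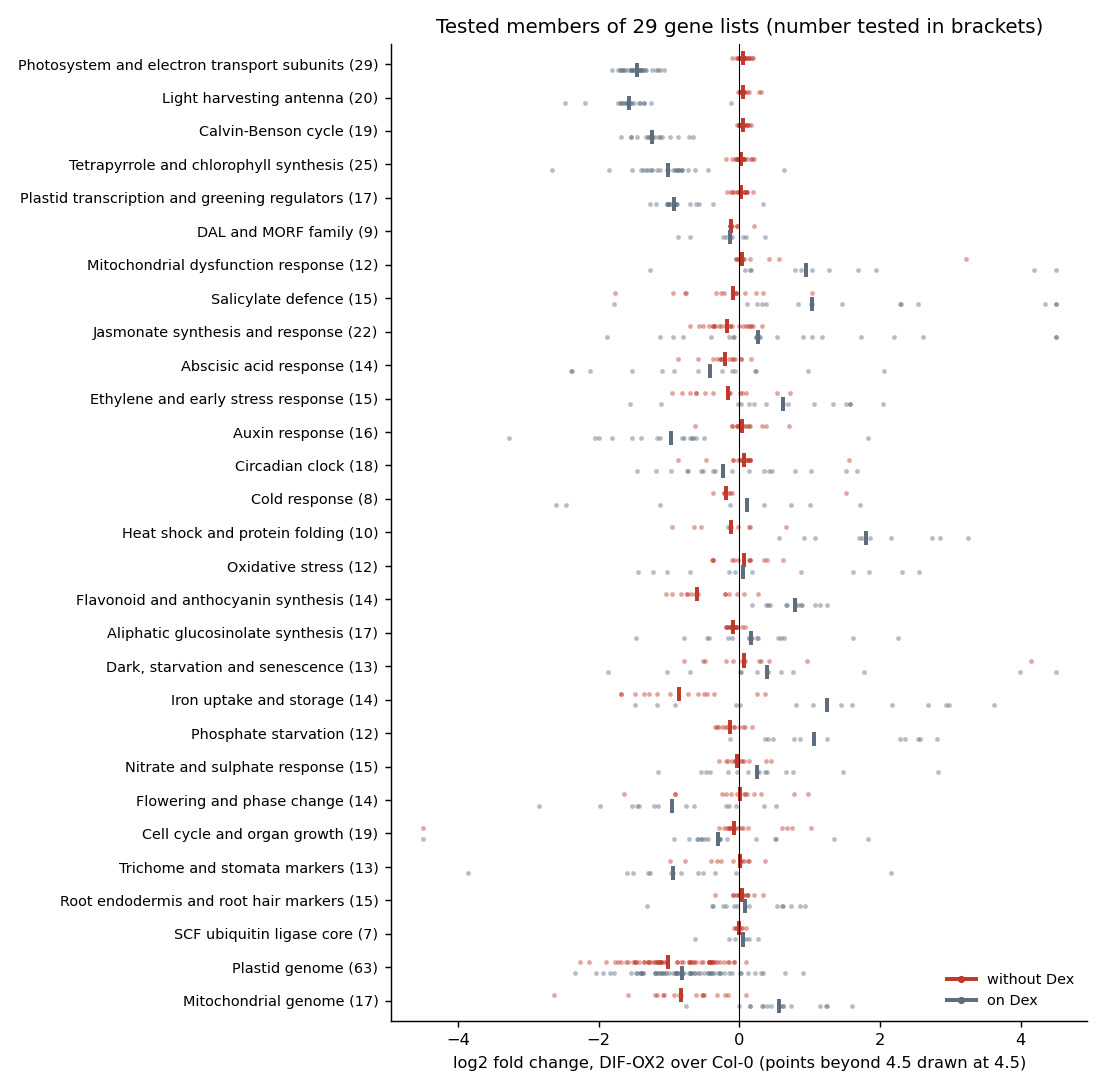
Log2 fold change of DIF-OX2 over Col-0 (horizontal axis) for the tested members of 29 gene lists, without Dex in red and on Dex in grey, with the median as a vertical bar. Red medians of 25 lists lie within 0.2 of 0, and those of the iron list (-0.86), the flavonoid list (-0.61), the plastid genome (-1.02) and the mitochondrial genome (-0.83) stand apart.

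Flavonoid and anthocyanin synthesis had a median of -0.61 over 14 tested genes in the uninduced line, 12 of them below 0 and 0 called. UF3GT, which adds a sugar to anthocyanins, stood at 5.70 and 4.81 CPM in DIF-OX2 and 13.7 and 7.98 CPM in Col-0. DFR, an enzyme before it in the pathway, stood at 40.4 and 33.6 CPM in DIF-OX2 and 63.7 and 60.1 CPM in Col-0. LDOX, the next enzyme, stood at 37.0 and 22.8 CPM in DIF-OX2 and 59.4 and 41.3 CPM in Col-0. The groups did not overlap in these 3 genes, which were named after their values were seen, and their log2 fold changes were -1.04, -0.74 and -0.75. In the list the groups did not overlap in 4 of 14 genes, against 27.5% of all tested genes. The entry enzyme gene TT4 had a log2 fold change of -0.04 and overlapping groups. Without Col-0 replicate 1 the median of the list was 0.10.

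Among flowering genes, MAF5 and FLC are floral repressors of the same clade, and neither was called. MAF5 stood at 2.69 and 2.01 CPM in DIF-OX2 and at 7.35 and 7.44 CPM in Col-0, a log2 fold change of -1.64 (adjusted p = 0.734 in edgeR and 0.0164 in the DESeq2 Wald test, Benjamini-Hochberg adjustment in each). On Dex it stood at 3.45 and 2.61 CPM in DIF-OX2 on Dex and 7.40 and 6.47 CPM in Col-0 on Dex, and was called lower (log2 fold change -1.21, adjusted p = 0.00843, edgeR quasi-likelihood, Benjamini-Hochberg). FLC stood at 2.53 and 1.92 CPM in DIF-OX2 and 4.12 and 4.31 CPM in Col-0 without Dex, a log2 fold change of -0.91. MAF5 and FLC, both described after their values were seen, did not overlap between groups. The flowering list of 14 tested genes had a median of 0.02 and 0 called. Its groups did not overlap in 7 genes, against 27.5% of all tested genes. AT1G15405, a non-coding RNA, was the fourth gene called only by DESeq2 without Dex, beside IRT1, FRO2 and MAF5. It had 52 and 29 counts in DIF-OX2 and 89 and 149 counts in Col-0.

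No gene of the organelle genomes was called, though most values lay below 0. Of 63 tested plastid genes 62 lay below 0, with a median of -1.02, 32 past 2-fold and 0 called. The groups did not overlap in 36 of the 63, against 27.5% of all tested genes. Plastid genes held 0.0357% and 0.0350% of the counts in DIF-OX2 and 0.0515% and 0.111% in Col-0. In 61 of 63 genes Col-0 replicate 2 was the highest of the 4 libraries. All 63 had a higher group mean in Col-0 than in Col-0 on Dex, though the libraries overlapped for some. Without Col-0 replicate 2 the median was -0.29.

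ATCG00020, the tested plastid gene with the highest mean over the 4 libraries, stood at 101 and 84.8 CPM in DIF-OX2 and at 171 and 459 CPM in Col-0. Mitochondrial genes showed the same shape, with a median of -0.83 over 17 tested genes, 0 called, and Col-0 replicate 2 highest in 14. Their median was -0.34 without Col-0 replicate 2 and -1.30 without Col-0 replicate 1. So did the 18S ribosomal RNA gene AT3G41768, at 295 and 318 CPM in DIF-OX2 and 582 and 1218 CPM in Col-0. Removing the organelle genes before scaling left the same 2 genes called.

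Markers of other tissues gave 0 calls, against 0.00967% of all tested genes. Trichome and stomata markers (13 tested, 0 called, median 0.01) summed to 123 and 118 CPM in DIF-OX2 and 126 and 125 CPM in Col-0. MYB0, which starts trichome formation, stood at 2.69 and 1.49 CPM in DIF-OX2 and 3.68 and 4.64 CPM in Col-0, with a log2 fold change of -0.98 that was not called. Root endodermis and root hair markers (15 tested, 0 called, median 0.03) summed to 221 and 233 CPM in DIF-OX2 and 232 and 206 CPM in Col-0. CASP1, which builds the Casparian strip, stood at 32.7 and 38.8 CPM in DIF-OX2 and 36.2 and 29.8 CPM in Col-0. The 15 seed maturation genes summed to under 1 CPM in each of the 4 libraries, and their first member ABI3 to at most 0.108 CPM.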

How the data were processed

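Libraries were made from total RNA with a TruSeq kit and sequenced, per the labels' protocols. Per the submitters' processing notes, the authors used Trimmomatic, TopHat2, HTSeq and the TAIR10 genome, and deposited read counts per gene. No source used here gives their versions, the strand setting or the handling of reads with several alignments, and counts of near-identical or overlapping genes are therefore uncertain. Names came from the TAIR10.1 annotation (32835 of 33602 genes). Genes were filtered with filterByExpr (12921 removed), scaled by TMM and fitted in edgeR 4.0.16 (R 4.3.3) to all 10 libraries with 1 coefficient per group, so that all groups share each gene's spread (residual degrees of freedom 5, prior 3.27). Intervals use the standard error of the fit and the total of 8.27 degrees of freedom. DESeq2 1.42.0 and limma 3.58.1 were alternatives. Members and gene lists were chosen with earlier results of these data known. By rule the text names DAL, the called genes with the largest changes, genes on in 1 genotype only, called neighbours, called list members and the first member of each list without a call; all other genes were chosen after their values were seen. No replicate pair was 1 library deposited again (chi-square per degree of freedom 8.20 to 84.0). Intervals and floors cover counting error or library spread only.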

Additional observations from a re-analysis of the deposited data

Results flagged for a closer look

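The line effect differed between both treatments in 10 of the genes described above. The value tested was the line effect on Dex minus the line effect without Dex. The edgeR quasi-likelihood test, Benjamini-Hochberg adjusted over all 20681 genes, called 1309 of them (6.33%). The text names the 10 genes partly after their values were seen, so their number cannot be weighed against that share. Of the iron genes, the log2 difference was 2.05 for CYP82C4 (adjusted p = 0.00774), 4.73 for AT3G12900 (0.0124) and 4.23 for bHLH38 (0.0261), and it was -1.42 for FER3 (0.0232) and -1.84 for FER4 (0.0118). Within Col-0 alone, both libraries without Dex lay above both on Dex for CYP82C4 and below both for FER3 and FER4, while they overlapped for AT3G12900 and bHLH38. The part that this shift within Col-0 plays in the differences was not tested. The log2 difference was 1.93 for UF3GT (adjusted p = 0.0214), 5.76 for SARD1 (0.0150), 0.86 for AOX1A (0.0389), -1.89 for IAA1 (0.0296) and -2.87 for MYB0 (0.0336). With groups of 2 libraries no single library was tested as an outlier.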

How the results depend on the processing

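Without Dex, the same 2 genes were called with both other scalings, both other filters, without organelle genes, without dal-2 and in limma-voom. The count was 0 with only the libraries of the comparison (412 genes at an unadjusted p under 0.05), 1 with the 2-fold minimum, 6 in DESeq2 and 0 to 1 with a library left out. On Dex, 7065 genes were called without dal-2, 6892 with only the libraries of the comparison, 653 with the 2-fold minimum and 1343 to 3303 with a library left out. For the difference the counts were 3681 without dal-2, 148 with the 2-fold minimum, 2046 in DESeq2 and 190 to 1200 with a library left out, and 60.5% of the main calls were higher, against 47.9% without dal-2. Equal replicate numbers moved together in both genotypes (r = 0.458 across genes), but with 2 numbers they share only a number. With the replicate number as a block, 1 gene was called without Dex (CYP78A5; CYP82C4 had an adjusted p of 0.0644), and the block without dal-2, added after the data had been seen, called 2 without Dex, 8364 on Dex and 5099 for the difference. The causes were not tested. With 2 libraries a group, changes under 2-fold in low genes are not detectable, and changes above 2-fold can stay uncalled.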
